A study of Mus musculus with 6 samples.

Results

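Atm, Atr, Chek1 and Rad1, genes of the DNA damage checkpoint, were chosen by symbol from a deposited table of 88 genes annotated by KEGG with cellular senescence, and all 4 were found. Messenger RNA from mouse brain was sequenced in 6 samples, 3 labelled young brain and 3 labelled aged brain, and the labels give neuroblast, an immature migrating neuron, as the cell type. The sources used here give no ages, strain, sex or genotype, and do not state that each sample was a different animal. The p-values below therefore reflect the spread among these 6 samples, and that spread may be technical. The labels also describe tamoxifen injection of mice and counting of tdTomato+ NK cells, the same text for both groups, without tying it to the sequenced RNA. The protocol describes ground tissue, with no mention of a cell sort. Of the 7 neuroblast markers looked up, 0 are in the tables, so the cell type label could not be checked. As in any bulk sample, fewer cells of a type and less RNA per cell cannot be told apart.

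The DNA damage checkpoint halts the cell cycle when DNA is broken or its copying stalls. The kinase ATM responds mainly to double-strand breaks, to which it is recruited by the MRE11-RAD50-NBN complex. The related kinase ATR responds to single-stranded DNA at stalled forks, where the RAD9-HUS1-RAD1 ring, the 9-1-1 clamp, helps to activate it and ATR then phosphorylates the kinase CHK1, the product of Chek1. CHK1 restrains the CDC25 phosphatases and with them the cyclin-dependent kinases, while ATM and ATR also act on p53, whose target Cdkn1a encodes a cyclin-dependent kinase inhibitor. Lasting activity of this checkpoint is one route to cellular senescence, and in a tissue of mostly non-dividing cells CHK1 is best known from the dividing ones.

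The promoters are shown because the kinase genes and Rad1 followed different orders across the libraries, with values given after the sequences. Whether promoter sequence bears on those orders was not tested. All 4 genes matched RefSeq's table for build GRCm38.p6 by gene ID. Each window holds 250 bases before the listed start and 50 from it on, 5′ to 3′ on the gene's strand: Atm at chr9:53536622-53536921 (minus), Atr at chr9:95857347-95857646 (plus), Chek1 at chr9:36726609-36726908 (minus) and Rad1 at chr15:10485768-10486067 (plus; a window for another start lies 20 bases downstream). Capitals mark matches on either strand to TTCCCGC (an E2F motif), CTTCCGG (ETS), GCGCATGC (NRF1) or CCAAT, motifs chosen after the sequences had been seen.
Atm: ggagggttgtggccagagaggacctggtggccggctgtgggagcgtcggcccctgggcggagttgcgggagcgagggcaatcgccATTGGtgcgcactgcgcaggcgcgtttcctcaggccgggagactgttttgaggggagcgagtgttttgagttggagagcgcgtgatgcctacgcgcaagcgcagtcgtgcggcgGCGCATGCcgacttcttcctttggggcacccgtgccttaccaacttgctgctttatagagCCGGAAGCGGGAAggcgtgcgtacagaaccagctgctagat
Atr: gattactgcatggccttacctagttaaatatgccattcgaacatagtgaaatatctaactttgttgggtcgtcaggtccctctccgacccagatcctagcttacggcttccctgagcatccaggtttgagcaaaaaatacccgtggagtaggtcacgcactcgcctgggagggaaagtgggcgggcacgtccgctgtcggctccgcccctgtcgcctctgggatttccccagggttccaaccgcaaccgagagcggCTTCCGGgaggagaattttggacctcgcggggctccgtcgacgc
Chek1: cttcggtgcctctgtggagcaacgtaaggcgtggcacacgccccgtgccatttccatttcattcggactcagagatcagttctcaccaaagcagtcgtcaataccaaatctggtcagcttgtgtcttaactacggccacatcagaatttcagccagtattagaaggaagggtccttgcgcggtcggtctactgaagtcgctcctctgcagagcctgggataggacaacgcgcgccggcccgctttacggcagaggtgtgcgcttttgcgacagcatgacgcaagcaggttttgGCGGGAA
Rad1: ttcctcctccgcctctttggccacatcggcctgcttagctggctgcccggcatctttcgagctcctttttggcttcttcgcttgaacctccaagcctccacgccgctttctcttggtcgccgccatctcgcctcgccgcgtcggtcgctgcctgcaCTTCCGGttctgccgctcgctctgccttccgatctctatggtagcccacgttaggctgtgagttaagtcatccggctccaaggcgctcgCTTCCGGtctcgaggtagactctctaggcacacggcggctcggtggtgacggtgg

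The E2F letters were found in the windows of Atm and Chek1, 1 match each, and in 4.60% of all 32851 windows of the table. The ETS letters were found once in Atm and Atr and at 2 places in Rad1, against 8.86% of all windows. In Atm the ETS and E2F matches share 1 base. The NRF1 and CCAAT letters were each found once, in Atm (2.71% and 37.4% of all windows). These are matches of letters in one window per gene, and neither a match nor its absence was tested as a binding site. In GENCODE M21, Atm starts 307 bases from Npat and Rad1 starts 71 bases from Brix1, each on the opposite strand and with 0 shared exonic bases. Atr shares 726 exonic bases with the antisense gene 1700065D16Rik, 462 with the antisense gene Gm16794 and 178 with the snRNA gene Gm24004, together a small part of its 23629 exonic bases. The sources used here do not say whether the counting used strand, so reads at the antisense bases cannot be told apart. Gm24004 lies on the same strand as Atr, so strand would not separate its reads in either case.

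The deposited values are an expression signal whose unit is not named, so levels are compared between libraries and not between genes. In all 88 genes the aged mean is above the young mean. The table was thus picked for that direction in the very samples described here, and a higher aged mean of any of the 4 genes is no evidence of a direction. The summed signal of the 88 genes was 1902 to 2328 in the young and 1900 to 2992 in the aged samples, and the depth is unknown. Aged replicate 1 stood apart. Over the 66 genes whose signal averaged at least 1, its log2 values correlated at 0.737 and 0.723 with those of aged replicates 2 and 3, which correlated with each other at 0.992 (Pearson's r over genes, which are no independent replicates).

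For none of the 4 checkpoint genes did the difference between aged and young brain pass the test, and each 95% interval of the log2 change held 0. The kinase genes Atm, Atr and Chek1 were each highest in aged replicate 1 and next highest in young replicate 1, whereas the clamp gene Rad1 was highest in aged replicates 2 and 3. Differences were tested with limma on log2(signal + 1) over all 66 genes, with Benjamini-Hochberg adjustment. It called 0% of the 66 genes at a 5% false discovery rate, Atm, Atr and Rad1 included, and 3 genes (4.55%), none of them among these 4, had an unadjusted p under 0.05. Chek1, with a mean signal of 0.293, fell below the filter and was tested in the same fit over all 88 genes, which also called 0%. Log2 changes on this scale understate those of low genes. An exact permutation test of 3 against 3 samples cannot go below 0.1.

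Atm (Entrez gene 11920), the kinase of the double-strand break response, was listed at 1.88, 1.57 and 1.54 in young replicates 1 to 3 and at 2.92, 1.56 and 1.61 in aged replicates 1 to 3. Aged replicate 1 alone stood above all young samples, and aged replicates 2 and 3 lay inside the young range. The means were 1.66 ± 0.188 in the young and 2.03 ± 0.771 in the aged samples (SD, n = 3 each). The log2 change was 0.16 (SE 0.252, 95% interval −0.43 to 0.75, limma adjusted p = 0.994), and the exact two-sided permutation p was 0.6. Without aged replicate 1 it turned to −0.04 (SE 0.171, adjusted p = 0.862).

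Atr (245000), the kinase of the stalled fork response, was listed at 2.84, 1.68 and 1.31 in the young and at 4.16, 2.00 and 1.40 in the aged samples. From the highest down, the libraries were aged 1, young 1, aged 2, young 2, aged 3 and young 3, so the groups alternated. The means were 1.94 ± 0.798 in the young and 2.52 ± 1.45 in the aged samples (SD, n = 3 each). The log2 change was 0.21 (SE 0.356, 95% interval −0.62 to 1.05, limma adjusted p = 0.994, exact two-sided permutation p = 0.6). Without aged replicate 1 it was −0.10 (SE 0.257, adjusted p = 0.806), and without young replicate 1 it was 0.42 (SE 0.397, adjusted p = 0.969).

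Chek1 (12649), which encodes the kinase downstream of ATR, was listed at 0.47, 0.13 and 0.12 in the young and at 0.48, 0.29 and 0.27 in the aged samples. All 3 aged samples stood above young replicates 2 and 3, while young replicate 1 was within 0.01 of the highest aged sample. The means were 0.240 ± 0.199 in the young and 0.347 ± 0.116 in the aged samples (SD, n = 3 each). The log2 change was 0.13 (SE 0.128, 95% interval −0.18 to 0.43, limma adjusted p = 0.994, exact two-sided permutation p = 0.5). It was 0.51 (SE 0.459, adjusted p = 0.995) with a pseudocount of 0.1, and 0.26 (SE 0.0902, unadjusted p = 0.0354, adjusted p = 0.886) without young replicate 1. At signals this low, with unknown depth, the number of reads behind each value cannot be given.

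Rad1 (19355), a ring subunit of the 9-1-1 clamp, was listed at 6.73, 7.41 and 4.81 in the young and at 5.91, 11.1 and 8.18 in the aged samples. Both aged replicates 2 and 3 exceeded every young sample, and aged replicate 1 lay inside the young range. The means were 6.32 ± 1.35 in the young and 8.38 ± 2.58 in the aged samples (SD, n = 3 each). The log2 change was 0.34 (SE 0.300, 95% interval −0.37 to 1.05, limma adjusted p = 0.994, exact two-sided permutation p = 0.4). Without aged replicate 1 it was 0.54 (SE 0.236, unadjusted p = 0.0541, adjusted p = 0.149), in a fit that called 22.7% of the 66 genes and none of these 4. Without aged replicate 2 it was 0.14 (SE 0.338, adjusted p = 0.992). With array weights, which weight each library in the limma fit, it was 0.49 (SE 0.207, unadjusted p = 0.0406, adjusted p = 0.117). That fit also called 22.7% of the 66 genes, Rad1 not among them.

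**Figure D1:**
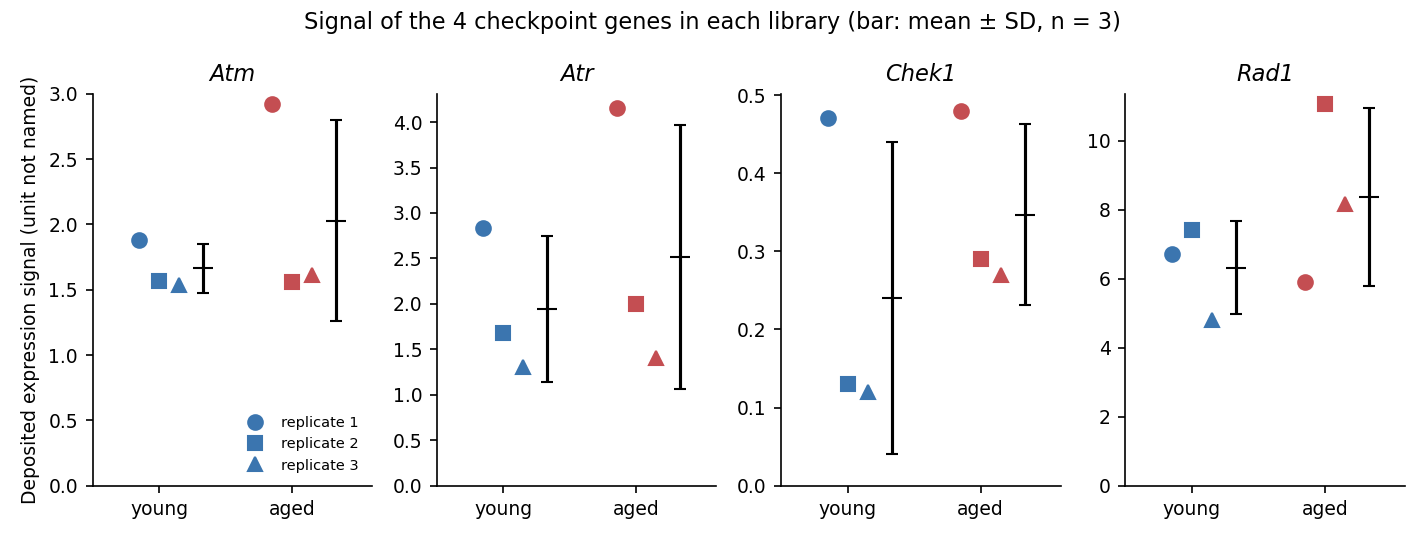
Deposited expression signal (unit not named, axes from 0) of Atm, Atr, Chek1 and Rad1 in each young (blue) and aged (red) library, with the replicate number as the marker shape and the mean ± SD (n = 3) as the black bar. The circles of replicate 1 are the highest in both groups for Atm, Atr and Chek1, at 2.92, 4.16 and 0.48 in the aged samples, but not for Rad1, where aged replicate 1 is at 5.91.

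The order with aged replicate 1 highest and young replicate 1 second, held by 3 of the 4 genes, was found in 19 of all 88 genes (21.6%). Aged replicate 1 alone was the highest library in 40 of the 88 (45.5%). Rad1 was among 32 of the 88 genes (36.4%) with both aged replicates 2 and 3 above the highest young sample. None of the 4 genes had all aged above all young samples, as 4 of the 88 (4.55%) did, all 4 among the 66 tested genes (6.06%).

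The aged samples had higher library medians, by 0.21 on the log2 scale over the 66 genes. Relative to that shift, with the medians set equal, the log2 change was −0.05 for Atm, 0.01 for Atr and −0.08 for Chek1, so Atm and Chek1 changed sign. Rad1 was at 0.13 (SE 0.269, adjusted p = 0.99), and the limma test passed for none of the 4. Of the 66 genes, 58 (87.9%) had a fitted change above 0 as deposited and 24 (36.4%) with equal medians. The median log2 change of the 66 was 0.12. The table was picked for a higher aged mean, which by itself tends to raise the aged medians. Setting the medians equal takes out that direction too, so a change of sign here is no evidence of a direction.

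Set against the young mean, aged replicate 1 was higher by 0.56 on the log2 scale for Atm and by 0.84 for Atr, places 18 and 12 of 66 from the top. The mean of aged replicates 2 and 3 differed from the young mean by −0.04 and −0.10 for these kinase genes, against a median of 0.20 over the 66 genes. For Rad1 the 2 differences were −0.07 and 0.54, the latter at place 15 of 66. Chek1 lay between, at 0.27 and 0.06. Aged replicate 1 and the mean of the other aged samples were on opposite sides of the young mean for Atm, Atr and Rad1, as for 53 of the 66 genes (80.3%). The table holds genes with a higher aged mean signal. In signal, a gene with one of these below the young mean thus had to have the other above it. On the log2 scale this is made likely but not certain, and the negative differences of the 3 genes were small.

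**Figure D2:**
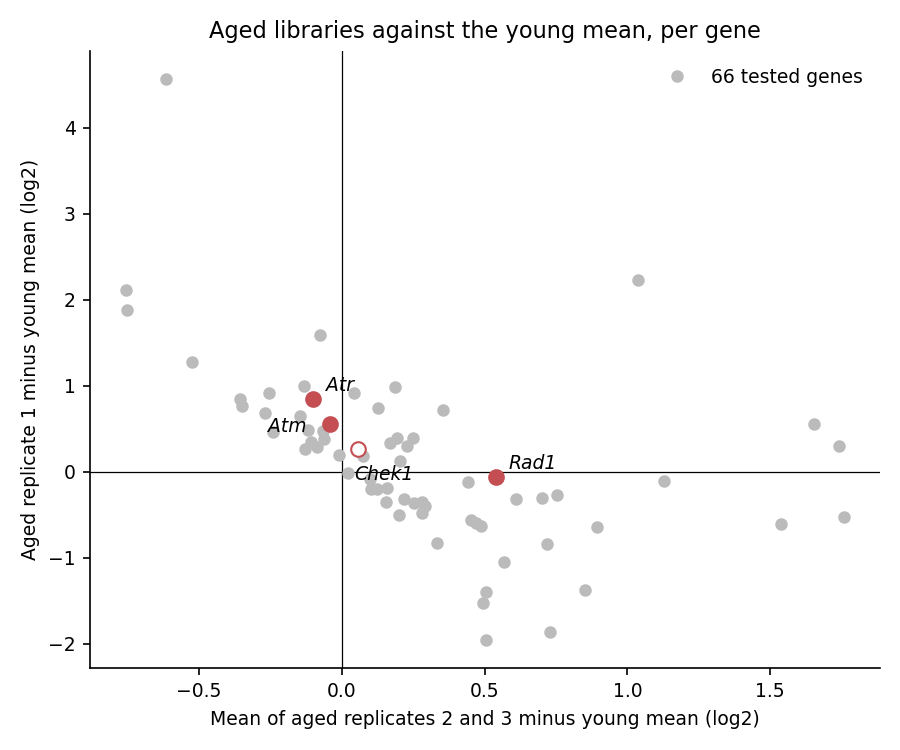
Each point is a gene, with the average of aged replicates 2 and 3, less the young mean, on the x axis and aged replicate 1, less the young mean, on the y axis (both log2(signal + 1)), grey for the 66 tested genes, red for the checkpoint genes and open for Chek1, which fell below the filter. Atm and Atr lie left of 0 and above it, at 0.56 and 0.84 on the y axis, and Rad1 lies right of 0 at 0.54 on the x axis.

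Ratios between 2 of the genes within a library were taken on log2(signal + 1). The added 1 makes them depend in part on the library's scale. Atr over Rad1 was −0.42 in aged replicate 1, above all other libraries, and −2.01 and −1.94 in aged replicates 2 and 3, below all young samples at −1.01, −1.65 and −1.33. Atm over Rad1 had the same extremes, at −0.82 in aged replicate 1 and −2.24 and −1.81 in the other aged samples against −1.42, −1.71 and −1.19 in the young. With nothing added to the signal, which removes the dependence on scale, Atr over Rad1 was −0.51 in aged replicate 1 and −2.47 and −2.55 in the other aged samples, against −1.24, −2.14 and −1.88 in the young. On log2(signal + 1), Atm over Atr was steadier, from −0.42 to 0.14 over the 6 libraries, with a mean of −0.11 ± 0.280 in the young and −0.17 ± 0.264 in the aged samples (SD, n = 3 each). With nothing added its range was wider, from −0.60 to 0.23. Atr over Rad1 thus spanned more within the aged group than its means differed between groups (−1.33 ± 0.320 in the young and −1.45 ± 0.896 in the aged samples, SD, n = 3 each).

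The genes most like each checkpoint gene were named by Pearson's r of log2(signal + 1) over the 6 libraries among the tested genes. These r describe genes over the same 6 libraries, whose depth is unknown, and 1 library can set much of an r. Atr was most like Ppp3cb, a calcineurin subunit gene (r = 0.995), Rad50 (0.993) and the channel kinase gene Trpm7 (0.976). Atm was most like the cytokine gene Il1a (0.986), the transcription factor gene E2f2 (0.98) and the receptor gene Tgfbr1 (0.947), all of which were highest in aged replicate 1. Il1a was listed at 142 in that library, against 2.83 to 7.5 in the others. Chek1 was most like Nbn (0.875), Atr itself (0.866) and Ppp3cb (0.865). Rad1 was most like Gadd45g (0.935), Cdkn2b (0.914) and Cdkn1a (0.857), in each of which both aged replicates 2 and 3 exceeded every young sample. That trait was held by 36.4% of all 88 genes, and a highest value in aged replicate 1 by 45.5%. Genes picked for likeness over these libraries largely share their high libraries by that choice, so the sharing is no support. Among the checkpoint genes r was 0.912 for Atm and Atr, 0.741 for Atm and Chek1, and −0.33, −0.11 and 0.080 for Rad1 with Atm, Atr and Chek1.

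Of 40 other genes listed for the pathway, 13 were in the table and 10 passed the filter, and limma called 0 of these 10 in either direction. Their median log2 change was 0.25, against 0.12 over the 66 genes. Of the clamp and its loader, Rad9a and Rad9b were in the table. Rad9a, whose product joins RAD1 in the ring, was listed at 13.2, 14.6 and 15.5 in the young and at 11.1, 17.6 and 14.8 in the aged samples (log2 change −0.01, SE 0.247). It was lowest in aged replicate 1 and highest in aged replicate 2. Rad9b, its paralog, was listed at 1.51, 1.72 and 2.14 in the young and at 2.65, 2.43 and 1.94 in the aged samples (log2 change 0.26, SE 0.224), with aged replicate 1 the highest, so the clamp genes did not share one order.

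Of the MRN complex, which recruits ATM, Rad50 and Nbn were in the table. Rad50 was listed at 2.62, 1.23 and 1.03 in the young and at 4.08, 1.80 and 0.92 in the aged samples (log2 change 0.25, SE 0.411), with aged replicate 1 and young replicate 1 again the highest, and aged replicate 3 the lowest. Nbn was listed at 8.48, 5.65 and 4.92 in the young and at 7.17, 7.40 and 5.84 in the aged samples (log2 change 0.11, SE 0.272), with no aged sample outside the young range. No gene of the activators and mediators was in the table, nor were Prkdc and Chek2.

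Of 13 genes of the cell cycle engine that the checkpoint restrains, 4 cyclin genes were in the table and 1 passed the filter. Ccna2, a cyclin of S phase and mitosis, was listed at 1.46, 1.25 and 0.58 in the young and at 2.88, 1.23 and 1.02 in the aged samples (log2 change 0.33, SE 0.325). Ccnb2, a mitotic cyclin, was listed at 1.82 in aged replicate 1, against 0.20 to 0.58 in the other 5 libraries. The signals of Ccne1 and Ccne2, cyclins of S phase entry, ran from 0.16 to 0.85. Aged replicate 1 was the highest library for Ccna2, Ccnb2 and Ccne2, as for the kinase genes, but not for Ccne1. None of the 9 markers of dividing cells looked up, Mki67 among them, was in the tables.

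Among p53, its targets and related stress genes, 5 of 9 genes were in the table and all 5 were tested. Mdm2, whose product limits p53, was listed at 20.1, 17.8 and 15.9 in the young and at 23.8, 22.6 and 20.4 in the aged samples (log2 change 0.30, SE 0.215, limma adjusted p = 0.994), the 1 gene of the list with all aged above all young samples. Cdkn1a was listed at 30.8, 27.0 and 21.9 in the young and at 17.96, 94.6 and 88.0 in the aged samples, the same sides of the young values as Rad1 in aged replicates 2 and 3. Its log2 change was 1.00 (SE 0.613, adjusted p = 0.994), and it was the 1 gene of the 10 that limma called, as higher, without aged replicate 1, in the fit that called 22.7% of the 66 genes. The table holds genes with a higher aged mean, and aged replicate 1 lay below the young mean. The mean signal of the other aged samples thus had to lie above the young mean, though not by the listed amount. The stress genes Gadd45a, Gadd45b and Gadd45g had log2 changes of 0.08 (SE 0.305), 0.08 (SE 0.505) and 0.25 (SE 0.278). Gadd45b was listed at 17.9 in aged replicate 1 and at 5.19 and 3.78 in the other aged samples, against 6.11, 7.34 and 7.06 in the young.

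Aged replicate 1 set the size or sign of several of these pathway values. Without it the log2 change was −0.06 for Gadd45a, −0.52 for Gadd45b (adjusted p = 0.121) and 0.44 for Gadd45g (adjusted p = 0.149). It was then 0.16 for Rad9a, −0.13 for Rad50 and 0.04 for Ccna2. When GC and length trends were also taken out, limma called Cdkn1a (log2 change 1.57, adjusted p = 0.0153) and Mdm2 (0.41, adjusted p = 0.0408) as higher and Gadd45b (−0.90, adjusted p = 0.0286) as lower, in the fit that called 9.68% of 62 genes higher and 1.61% lower.

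**Figure D3:**
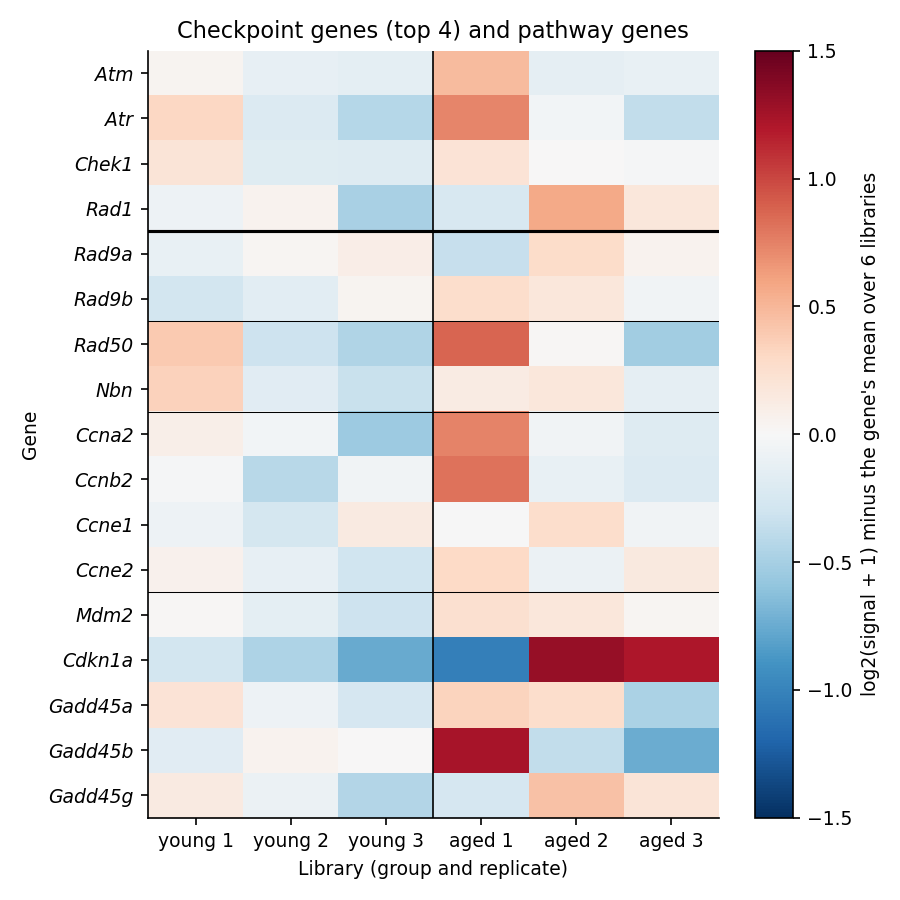
Colour gives log2(signal + 1) minus the gene's own mean over the 6 libraries, with the checkpoint genes in the top 4 rows and the 13 other pathway genes below, grouped by role (thin lines), and young libraries left of the vertical line. Atr and Rad50 are red in young replicate 1 and aged replicate 1, whereas Rad1, Gadd45g and Cdkn1a are red in aged replicates 2 and 3.

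Of the 6 choroid plexus markers looked up, Igfbp2, Trpv4 and Calml4 were in the table. Their summed signal was 860, 414 and 436 in the young and 222, 926 and 960 in the aged samples. It was higher in aged replicates 2 and 3 than in aged replicate 1, as Rad1 was, and was also high in young replicate 1, where Rad1 was not. The part of such cells in the result was not tested. Ttr, a defining marker, was not in the tables, nor was any marker looked up for NK cells, microglia, astrocytes, oligodendrocytes, endothelium or mature neurons.

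Transcript length and GC content were taken from the longest coding transcript in GENCODE M21. Atm had the longest of 62 tested genes with a value, at 9819 bases, and Atr was at place 4 with 8102 bases, against a median of 2449. Their GC contents of 42.6% and 40.8% were at places 51 and 59 of 62 from the highest. Chek1 had 3797 bases and 41.0% GC, and Rad1 4085 bases and 45.6%, against a median GC content of 51.6%. With a linear trend on GC content and log2 length taken out of each library, an alternative added after seeing the data, the log2 changes were 0.31 for Atm (adjusted p = 0.838), 0.33 for Atr (0.826), 0.13 for Chek1 (0.978) and 0.37 for Rad1 (0.992).

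With these trends removed and aged replicate 1 left out, limma called Atm higher in the aged samples, by a log2 change of 0.50 (SE 0.109, adjusted p = 0.0462, range over its alternatives 0.0462 to 0.999), in a fit that called 6 of 62 genes higher (9.68%). The same fit gave 0.78 for Rad1 (SE 0.186, adjusted p = 0.0525) and 0.45 for Atr (SE 0.182, adjusted p = 0.133). Chek1, over all genes with a GC value, was at 0.42 (SE 0.121, adjusted p = 0.0855). Neither step alone gave this call for Atm, whose adjusted p was 0.838 with the trends removed and 0.862 without aged replicate 1. The trends were fitted on genes picked for a higher aged mean, Atm, Atr and Rad1 among them, and 2 aged samples remained.

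**Figure D4:**
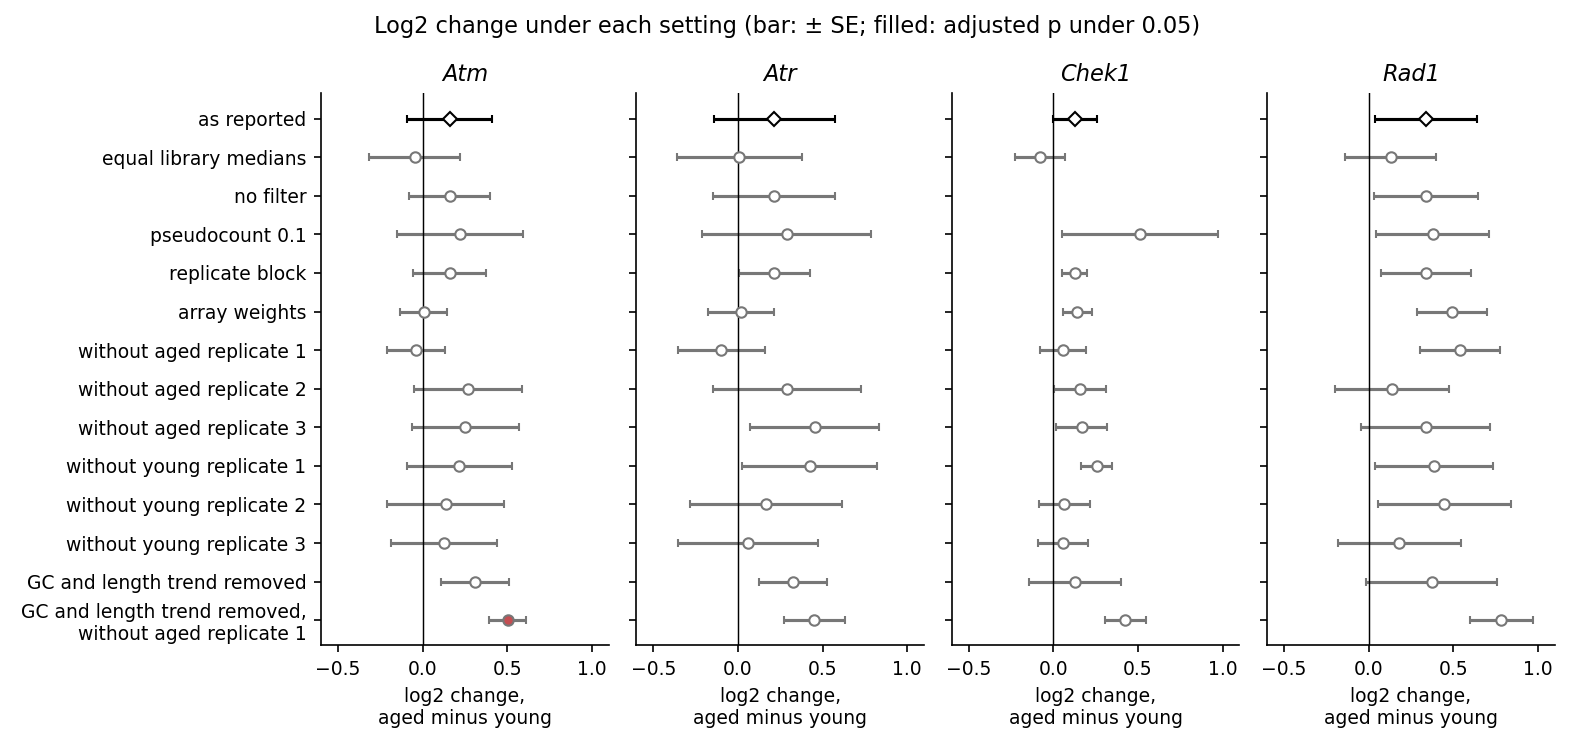
Log2 change of each checkpoint gene, aged minus young, as reported (diamond) and under the alternatives (circles), with bars of ± SE and a filled circle where the adjusted p was under 0.05. The 1 filled circle is Atm at 0.50 with GC and length trends removed and aged replicate 1 left out, while Rad1 stays right of 0 under every setting drawn.

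The authors' deposited table gives its own test, whose method the sources used here do not name. In the authors' deposited table the log2 ratio of aged to young was 0.27 for Atm (q = 5.97e-05), 0.50 for Atr (q = 1e-08), 0.55 for Chek1 (q = 0.108) and 0.45 for Rad1 (q = 6.71e-10). For these 4 genes the authors' ratios differ by up to 0.12 from the log2 ratio of the listed group means. The limma changes above are on log2(signal + 1), a different measure. The authors' deposited table has a q under 0.05 for 54 of the 85 genes with one (63.5%), Atm, Atr and Rad1 among them. For the same 3 genes limma, which takes its error from the spread between the 3 samples of a group, gave an adjusted p of 0.994. Atm, Atr and Chek1 also appear, with identical values, in the deposited table of 21 cell cycle genes, which does not hold Rad1.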

How the data were processed

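The checkpoint genes and pathway lists were chosen with earlier results of these data known. For each gene and sample the authors deposited an expression signal to 2 decimals, whose unit neither headers nor labels name. The sources used here name no aligner, counting tool, normalization or genome build. Other columns, per the file headers, hold a log2 ratio (aged over young), a p-value and a q-value, all from the authors. Groups and replicate numbers came from the sample titles, and columns were matched to samples by the title's first word.

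Genes averaging a signal of 1 or more (66 of 88) were kept, and log2(signal + 1) was fitted with limma 3.58.1 (lmFit, eBayes with trend) in R 4.3.3, with no covariate, with Benjamini-Hochberg adjustment over all genes fitted at a 5% false discovery rate. Chek1, below the filter, was taken from the fit with no filter. Exact two-sided permutation tests used scipy 1.17.1 in Python 3.11.15. The fit was tested on simulated data. Named genes were the 4 checkpoint genes, pathway genes in the table and the 3 most correlated tested genes for each. GC content and length were matched by Entrez ID in GENCODE M21 for 62 of the 66 genes. No gene coordinates are given because the files' build is not given; promoter windows are RefSeq's on GRCm38.p6. With depth unknown, no counting interval can be had.

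Alternatives were a pseudocount of 0.1, library medians set equal, a minimum mean of 5 or none, eBayes with no trend, array weights, a replicate block, each library left out, a 10% false discovery rate, and, added after seeing the data, removal of GC and length trends with or without aged replicate 1.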

Additional observations from a re-analysis of the deposited data

How the results depend on the processing

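Of 56 alternative values for the 4 genes, 51 kept both the sign and the side of the 5% threshold. Settings that altered only the filter, the eBayes trend or the replicate block could not move the log2 change, so its sign was fixed there. Atm turned to −0.048 and Chek1 to −0.080 with equal library medians, a setting that also takes out the direction for which the table was picked. With 1 library left out, log2 changes ran from −0.041 to 0.27 for Atm, from −0.10 to 0.45 for Atr, from 0.06 to 0.26 for Chek1 and from 0.14 to 0.54 for Rad1; the negative values of Atm and Atr are those without aged replicate 1. Atm alone crossed the threshold, at 0.50 with GC and length trends removed and without aged replicate 1. The count of genes past the threshold over the table, 0 as reported, was 15 with array weights and 7 with GC and length trends removed and without aged replicate 1, and ran from 0 to 15 with 1 library left out (15 without aged replicate 1). The cause of these shifts was not tested. Same-numbered young and aged libraries deviated together at r = 0.271, 0.091 and 0.408 for replicates 1 to 3, against −0.348 to 0.254 for differently numbered ones. For each young library the same-numbered aged library had the highest r. The labels do not state that the numbers pair the samples, so they were not taken to. With the replicate block, the log2 changes of Atm, Atr, Chek1 and Rad1 were 0.16, 0.21, 0.13 and 0.34, unchanged by construction in this balanced design. The SEs fell to 0.215, 0.210, 0.0731 and 0.264 in the same order, and the count of calls was 0. With a mean of at least 5, Atm and Atr had no value. The depth is unknown, so the precision of low signals, such as the 0.12 to 0.48 of Chek1, cannot be given.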
